A study of Mus musculus with 8 samples.

Results

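The PARP family genes Parp1, Parp2, Parp3, Parp8, Parp9, Parp10, Parp11, Parp12 and Parp14, together with Dtx3l, were followed in gut epithelial cells exposed to a type III or a type I interferon (IFN). These 10 genes are a chosen list and not the whole family, and their probes were found by gene name among the 31791 gene names on the array. Dtx3l had 2 probes and each of the others had 1, so that 11 probes were measured. Gene expression was recorded on 8 one-color arrays of IEC10 cells, an immortalized mouse intestinal epithelial line that carries an Mx2-luciferase reporter transgene. All cells were grown for 21 days on transwell inserts, porous filters on which epithelial cells polarize. The control group of 2 arrays came from untreated cells, 3 arrays came from cells stimulated with IFN-λ2 at 20 ng/mL and 3 from cells stimulated with IFN-β at 500 U/mL, each for 9 h. The cells are 1 immortalized line in culture, and the labels do not say whether replicates came from separate cultures, so that p-values measure the spread between these samples, which may be technical.

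Members of the PARP family transfer ADP-ribose from the cofactor NAD+ to proteins, either as single units or as chains. Parp1 and Parp2 build chains at DNA breaks, whereas most other members attach single units. Several of the latter are known as interferon-stimulated genes (ISGs). Both IFN types act through receptors at the cell surface and the transcription factor ISGF3, which includes Stat2 and Irf9 and binds the IFN-stimulated response element (ISRE) in promoters. Dtx3l is not a PARP but a ubiquitin ligase that forms a complex with Parp9.

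The probes are 60-base oligonucleotides. The first 30 bases are shown for the probes of the 5 genes with the largest responses, because the values below rest on these sequences and because Dtx3l was read at 2 separate places.
Parp14: tgactagccaaccaatgttacagacacttt
Parp9: gcctgttattttctaaaatgatagcacaaa
Dtx3l, probe with the higher signal: catccagtgtgcacatgcaaattccacgtg
Dtx3l, probe with the lower signal: gaaagggttgggcaaggagagagctcgctt
Parp12: tgacttataatgatgttagtattgtatttt
Parp10: cttggttggaccgcgccctagaggggttct

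Their positions in the mouse build mm9, as the array files give them, are chr16:35832992-35833051 on the minus strand for Parp14, chr16:35972577-35972636 on the plus strand for Parp9, chr16:35926655-35926714 and chr16:35932885-35932944 on the minus strand for Dtx3l, chr6:39036828-39036887 on the minus strand for Parp12 and chr15:76063433-76063492 on the minus strand for Parp10. The remaining probes lay at chr6:127428092-127439947 on the plus strand for Parp11, chr9:106372743-106372802 on the minus strand for Parp3, chr13:117643922-117643981 on the minus strand for Parp8, chr1:182530341-182530639 on the plus strand for Parp1 and chr14:51439134-51439365 on the plus strand for Parp2. The intervals of Parp11, Parp1 and Parp2 are longer than the 60 bases of the probe, so that these probes join sequence from both sides of a gap in the genome. No mm9 annotation was used here, and the exon under each probe is therefore not given. Parp14, Dtx3l and Parp9 lie side by side on chromosome 16. In the RefSeq gene table of build GRCm38.p6 the order is Parp14, the pseudogenes Gm41467 and Gm10237, Dtx3l and Parp9. Dtx3l and Parp9 overlap there by 558 bases.

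Signals are given in normalized gPS units, the background-subtracted green signal after scaling of each array to a 75th percentile of 1500. All 11 probes were well above background on all 8 arrays, and no probe was saturated. The array-wide scaling factors lay between 0.691 and 0.775, and between 20987 and 24244 probes per array were well above background. Between replicates the median absolute log2 difference was 0.09 to 0.16, and no pair shared an identical value above the floor of 15 units. The epithelial identity of the cells was checked with 8 markers, of which 7 could be tested. Epcam had a control mean of 6596 normalized units and Krt18 of 204300, whereas Vil1 reached 64.0 units and Cdx2 did not pass the filter on low signals. Of the fibroblast markers 3 of 5 could be tested, none with a group mean above 46.2 units. Among leukocyte markers the pan-leukocyte Ptprc was well above background on no control or IFN-λ2 array and on 2 of 3 IFN-β arrays (mean 31.7 units, limma adjusted p = 0.441 over control), whereas Itgam, an integrin chain of myeloid cells, had group means of 7133, 2878 and 6714 units in control, IFN-λ2 and IFN-β arrays. The Itgam difference between IFN-λ2 and control did not pass (log2 -1.32, SE 0.55, limma adjusted p = 0.145). In the same group order, the leukocyte markers Cd68 (47.1, 63.8 and 49.0 units) and Cd3e of T cells (180, 156 and 182 units) were well above background on every array. So was Kdr of endothelium (859, 820 and 877 units). Of the epithelial markers Cdh1 and Krt19 were higher with IFN-λ2 than in control cells (log2 change 0.44 and 0.41, limma adjusted p = 0.0271 and 0.022), and Krt19 was also higher than with IFN-β (0.59, adjusted p = 0.00579). No fibroblast, leukocyte or endothelial marker passed the test in any comparison, and the part of other cell types in the results was not tested.

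Of the 10 genes, Parp14, Parp9, Dtx3l, Parp12 and Parp10 rose at least 2-fold with both cytokines. Parp11 passed the test over control (limma, adjusted p under 0.05) with IFN-λ2 and Parp3 with IFN-β, both at less than 2-fold, whereas Parp1, Parp2 and Parp8 passed in no comparison. With IFN-λ2, 6 of 10 genes were higher than in control cells and none was lower at an adjusted p under 0.05 in limma. Among all 26009 probes tested in this comparison, 10.1% were higher and 8.39% were lower. With IFN-β, 6 of 10 genes were higher and none was lower, beside 1.42% and 0.211% of all probes. At a cutoff of at least 2-fold, 5 of 10 genes were higher with each cytokine, compared with 2.68% of all probes for IFN-λ2 and 0.880% for IFN-β. The median log2 change of the 10 genes over control was 1.03 under IFN-λ2 and 1.05 under IFN-β, beside 0.00 and 0.02 for all probes. All treated arrays exceeded both control arrays for 8 of the 10 genes with IFN-λ2 (25.0% of all probes) and for 7 of the 10 with IFN-β (14.9% of all probes). Both comparisons use the same 2 control arrays.

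**Figure D1:**
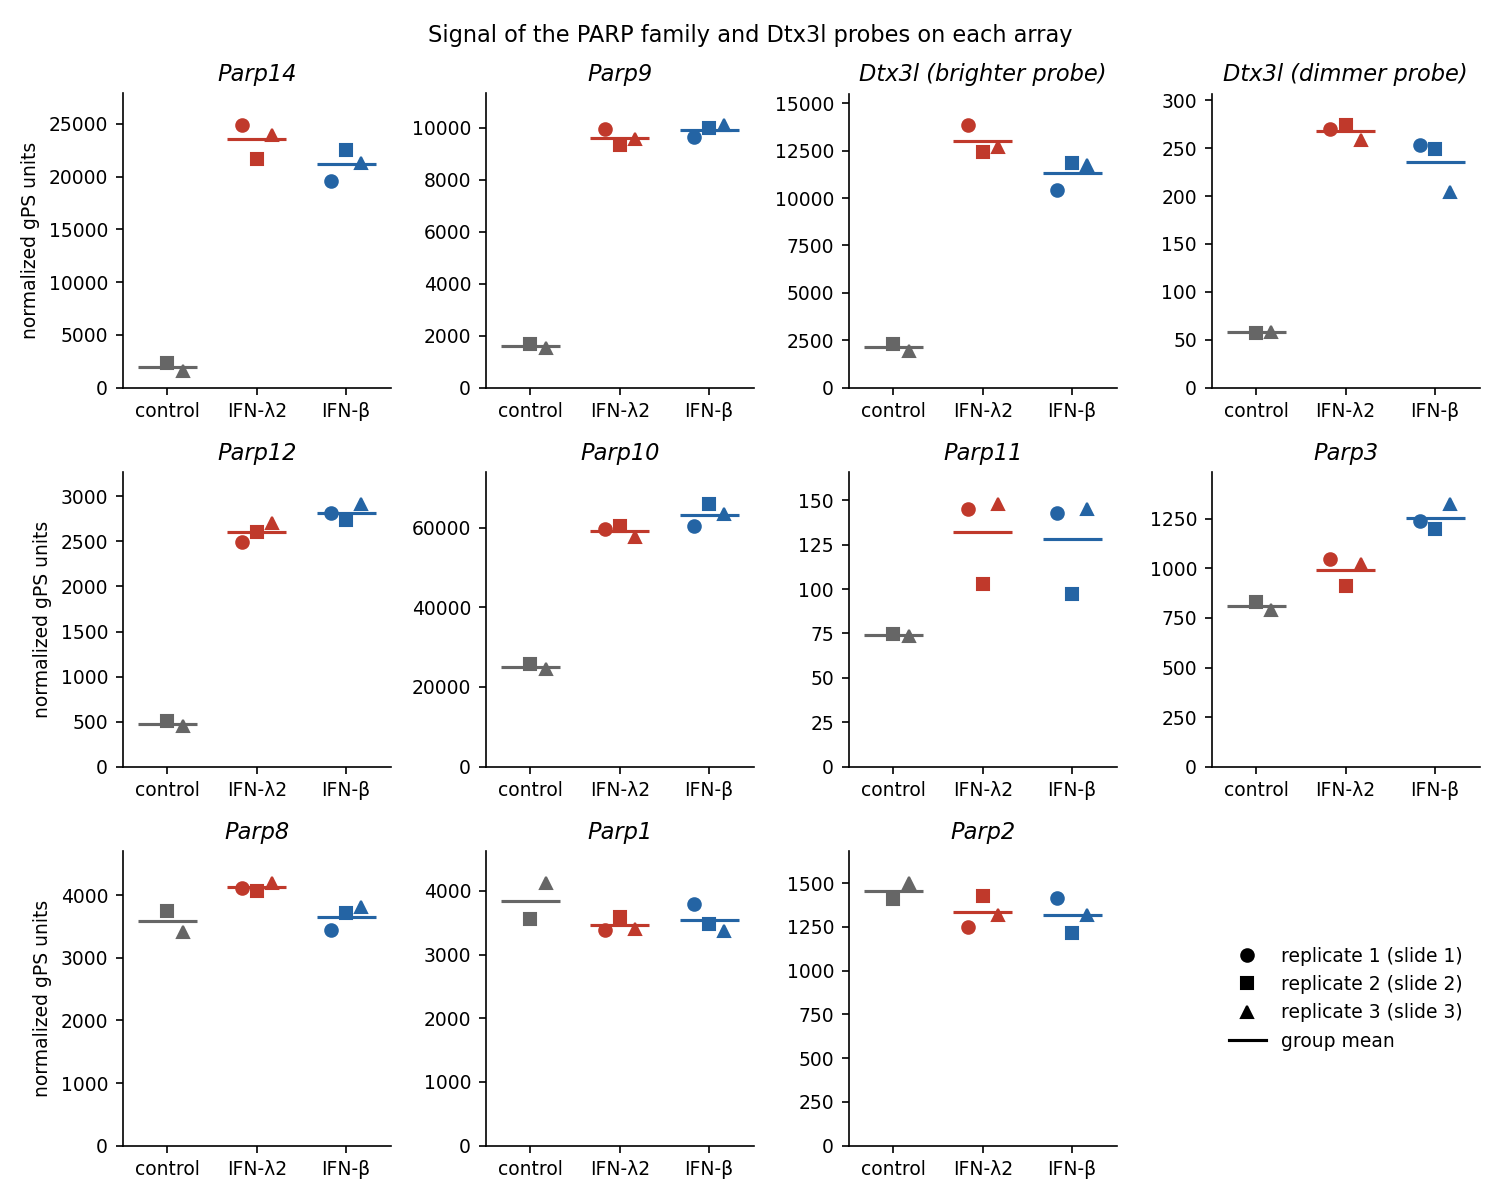
Signal of each PARP family and Dtx3l probe on each array, in normalized gPS units on linear axes that start at 0. Marker shapes give the replicate number and lines the group means (control n = 2, IFN-λ2 n = 3, IFN-β n = 3), and the first 6 panels show cytokine-treated arrays far above both control arrays.

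Parp14, which carries macrodomains that bind ADP-ribose and attaches single ADP-ribose units, showed the largest response among the 10 genes. Its signal in control cells was 2351 and 1582 units on replicates 2 and 3. After IFN-λ2 it was 24898, 21717 and 23990 units, and after IFN-β 19604, 22571 and 21315 units, on replicates 1, 2 and 3. Every cytokine-treated array thus exceeded both control arrays, while the ranges of the cytokine groups overlapped. The group means were 1967 ± 544 units (SD, n = 2) in control cells, 23535 ± 1639 (SD, n = 3) with IFN-λ2 and 21163 ± 1489 (SD, n = 3) with IFN-β. The change over control was 12.2-fold with IFN-λ2 (95% interval 9.25 to 16.0, limma adjusted p = 2.87e-05) and 11.0-fold with IFN-β (8.32 to 14.4, adjusted p = 4.98e-05). Ordered by log2 change over control, the Parp14 probe was number 67 of 26009 with IFN-λ2 and number 44 with IFN-β. As a ratio, the control arrays differed from each other more for Parp14 than for any other of the 5 genes with large responses, and within slides 2 and 3 the change was 9.24-fold and 15.2-fold with IFN-λ2 and 9.60-fold and 13.5-fold with IFN-β.

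Parp9, a macrodomain protein, and its partner Dtx3l rose with both cytokines. Parp9 signals were 1673 and 1517 units in control cells, 9946, 9353 and 9558 on the IFN-λ2 arrays and 9653, 9988 and 10104 on the IFN-β arrays. Treated and control arrays did not overlap, and the ranges of the cytokine groups overlapped in part. Parp9 increased 6.04-fold with IFN-λ2 (5.35 to 6.81, adjusted p = 3.25e-06) and 6.22-fold with IFN-β (5.52 to 7.02, adjusted p = 5.64e-06, both limma). Its group means were 1595 ± 110, 9619 ± 301 and 9915 ± 234 units (SD, n = 2, 3 and 3) in the order control, IFN-λ2 and IFN-β.

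The Dtx3l probe with the higher signal gave 2316 and 1931 units in control cells, 13850, 12451 and 12692 with IFN-λ2, and 10439, 11851 and 11742 following IFN-β. All 3 IFN-λ2 arrays lay above all 3 IFN-β arrays, which in turn lay above both control arrays. The increase was 6.14-fold with IFN-λ2 (5.14 to 7.33, limma adjusted p = 1.64e-05) and 5.36-fold with IFN-β (4.48 to 6.40, adjusted p = 3.44e-05). The other Dtx3l probe lies upstream of it on the minus strand and read 57.4 and 57.8 units in control cells, 270, 274 and 258 on IFN-λ2 arrays and 254, 249 and 205 on IFN-β arrays. The groups were ordered as with the first probe and again did not overlap. This probe rose 4.64-fold with IFN-λ2 (3.91 to 5.52, adjusted p = 3.08e-05) and 4.07-fold with IFN-β (3.43 to 4.84, adjusted p = 6.86e-05). Both Dtx3l probes were thus higher with both cytokines, and the difference in fold between the probes was not tested.

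Parp12, which combines zinc fingers with transferase activity for single ADP-ribose units, rose with both cytokines as well. Its signal was 503 and 449 units in control cells, 2497, 2601 and 2709 upon IFN-λ2 exposure and 2811, 2733 and 2915 upon IFN-β exposure. Here all IFN-β arrays exceeded all IFN-λ2 arrays, and both groups exceeded control. The group means were 476 ± 38.1 (SD, n = 2), 2602 ± 106 (SD, n = 3) and 2820 ± 91.6 units (SD, n = 3). The increase was 5.47-fold with IFN-λ2 (4.80 to 6.24, limma adjusted p = 5.49e-06) and 5.93-fold with IFN-β (5.20 to 6.76, adjusted p = 6.88e-06).

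Parp10, another enzyme that attaches single units, had the smallest of the 5 responses. Control arrays read 25718 and 24534 units, IFN-λ2 arrays 59779, 60469 and 57531 units and IFN-β arrays 60410, 65924 and 63333 units. The cytokine groups overlapped slightly and both were separate from control. Its group means were 25126 ± 837 (SD, n = 2), 59259 ± 1536 (SD, n = 3) and 63222 ± 2759 units (SD, n = 3). Parp10 increased 2.36-fold with IFN-λ2 (2.10 to 2.65, limma adjusted p = 7.78e-05) and 2.52-fold with IFN-β (2.24 to 2.83, adjusted p = 7.9e-05).

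**Figure D2:**
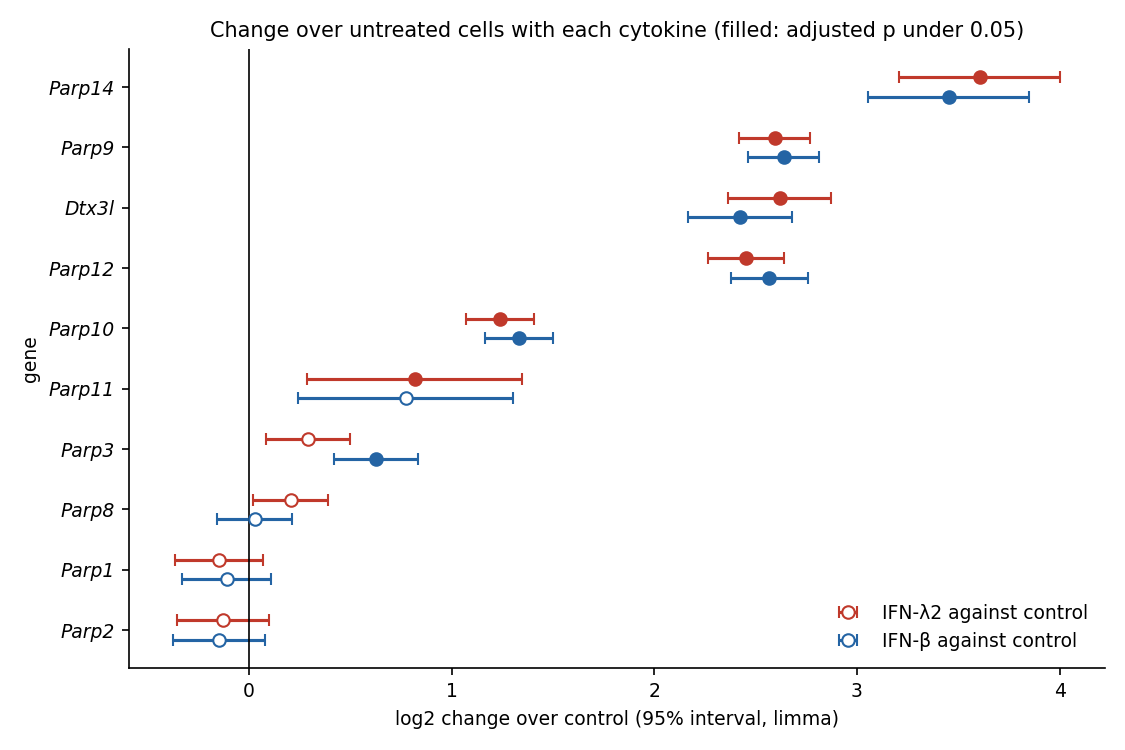
Log2 change over control for the 10 genes, 1 probe per gene, with 95% intervals from limma. Filled symbols have an adjusted p under 0.05. Parp14, Dtx3l, Parp9, Parp12 and Parp10 lie above 1 with both cytokines, and the intervals of Parp1 and Parp2 include 0.

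The fold changes of these 5 genes held over the 21 alternative analyses, which exchanged the background correction, scaling, filters, test and arrays. With IFN-λ2 all 5 passed in 21 of 21, at 9.99-fold to 14.9-fold for Parp14, 5.75-fold to 6.34-fold for Parp9, 5.34-fold to 6.72-fold for Dtx3l, 4.82-fold to 5.79-fold for Parp12 and 2.15-fold to 2.42-fold for Parp10. With IFN-β, Parp9, Parp12 and Parp10 passed in 21 of 21. Parp14 and Dtx3l passed in 20 and missed the threshold in a test of each probe by its own variance, without limma's shared estimate (adjusted p = 0.0851 and 0.0574).

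Parp11, an enzyme for single ADP-ribose units, gave signals of 74.4 and 73.4 units in control cells. After IFN-λ2 the values were 145, 103 and 148 units, and after IFN-β 143, 97.1 and 145 units. Replicate 2 was low with both cytokines, yet it remained above both control arrays. The increase was 1.76-fold with IFN-λ2 (1.22 to 2.55, limma adjusted p = 0.0469) and 1.71-fold with IFN-β (1.18 to 2.47, adjusted p = 0.224), so that nearly equal changes fell on opposite sides of the threshold. Each replicate number corresponds to 1 slide that was scanned as a whole, and the difference between IFN-λ2 and control was 0.47 on the log2 scale within slide 2 and 1.01 within slide 3. For IFN-β against control it was 0.38 and 0.98. The call with IFN-λ2 was made in 10 of 21 alternatives. It was lost on leaving out control replicate 2 or 3, IFN-λ2 replicate 1 or 3, or IFN-β replicate 1 or 3, with adjusted p-values of 0.142, 0.169, 0.131, 0.123, 0.0575 and 0.0633.

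Parp3, which acts at DNA double-strand breaks, gave its highest signals with IFN-β. Control arrays read 830 and 791 units, IFN-λ2 arrays 1046, 913 and 1020 units and IFN-β arrays 1237, 1200 and 1324 units. The 3 groups did not overlap. The change over control was 1.55-fold with IFN-β (1.34 to 1.78, limma adjusted p = 0.0171) and 1.22-fold with IFN-λ2 (1.06 to 1.41, adjusted p = 0.0621). The rise with IFN-β passed in 13 of 21 alternatives. Its adjusted p was 0.643 with normexp background correction and 0.0985 with the replicate number as a block. In a test of each probe by its own variance the adjusted p was 0.15. The difference with IFN-λ2 passed in 5 of 21. Without control replicate 2, control replicate 3, IFN-β replicate 1 or IFN-β replicate 3, the adjusted p with IFN-β was 0.0721, 0.108, 0.0546 and 0.0704, whereas without IFN-λ2 replicate 2 the adjusted p with IFN-λ2 was 0.0468.

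For Parp8, a less studied member, the signals were 3753 and 3418 units in control cells, 4121, 4071 and 4194 on IFN-λ2 arrays and 3437, 3716 and 3810 on IFN-β arrays. The IFN-λ2 arrays lay above all other arrays. The log2 difference from control was 0.21 with IFN-λ2 (95% interval 0.02 to 0.39, limma adjusted p = 0.119) and 0.03 with IFN-β (-0.16 to 0.21, adjusted p = 0.929).

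Parp1, the main sensor of DNA strand breaks, read 3555 and 4123 units in control cells, 3390, 3583 and 3395 on IFN-λ2 arrays and 3792, 3485 and 3368 on IFN-β arrays. All groups overlapped. Its log2 difference from control was -0.15 with IFN-λ2 (-0.37 to 0.07, limma adjusted p = 0.311) and -0.11 with IFN-β (-0.33 to 0.11, adjusted p = 0.698). Parp2, the related break sensor, read 1411 and 1501 units in control cells, 1251, 1428 and 1320 on IFN-λ2 arrays and 1417, 1213 and 1317 on IFN-β arrays, again with overlap. Here the log2 difference was -0.13 with IFN-λ2 (-0.36 to 0.10, adjusted p = 0.395) and -0.15 with IFN-β (-0.37 to 0.08, adjusted p = 0.611). The intervals of Parp1 and Parp2 leave room for a decrease to 0.775-fold and 0.771-fold, respectively, but for no increase above 1.08-fold.

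The position of the 10 genes among all probes is shown in the histogram of log2 changes. Parp9 was number 143, Dtx3l number 139, Parp12 number 165 and Parp10 number 575 of 26009 with IFN-λ2. With IFN-β these ranks were 81, 100, 87 and 246. Parp11 and Parp3 ranked at 1129 and 4736 with IFN-λ2 and at 607 and 850 with IFN-β.

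**Figure D3:**
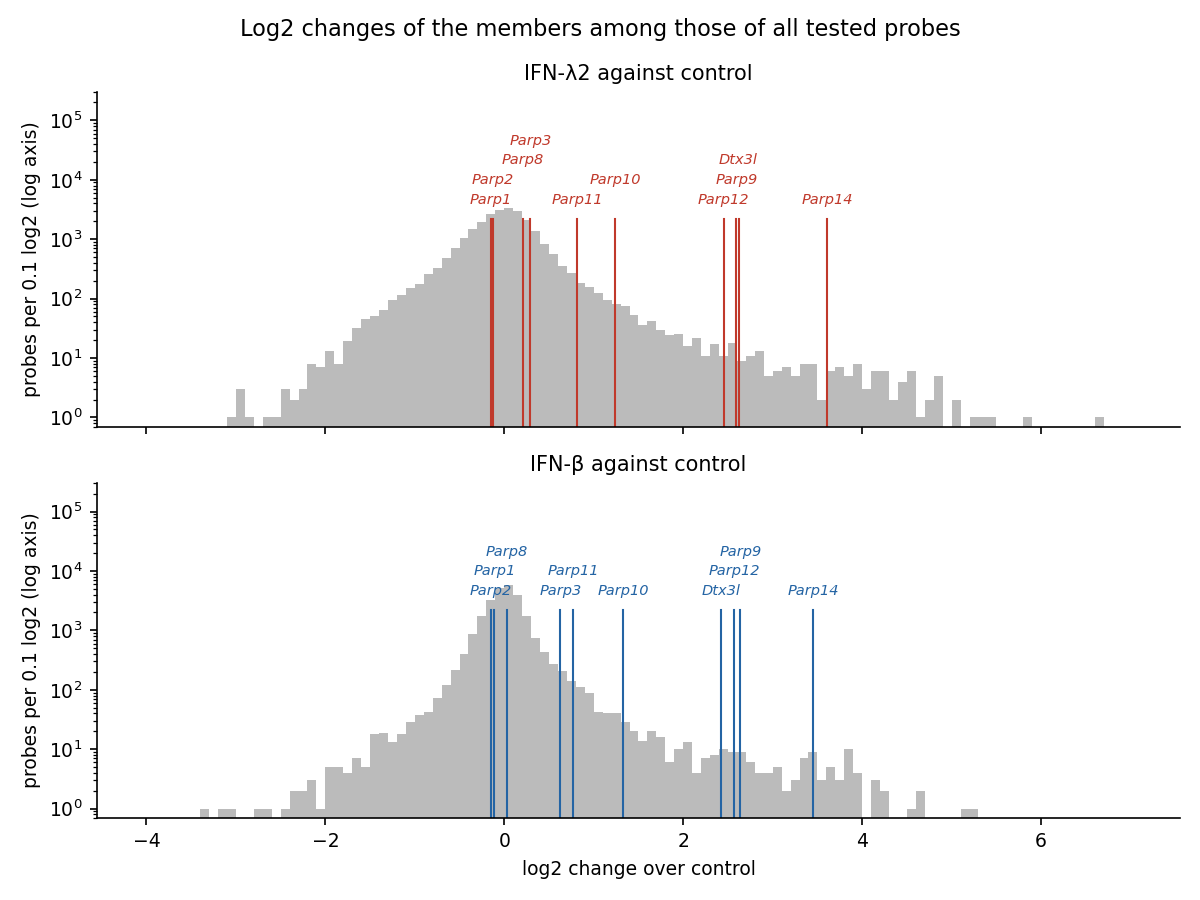
Number of probes (log axis) per bin of log2 change over control, among the 26009 probes tested, with vertical lines at the 10 genes. Parp14, Dtx3l, Parp9 and Parp12 lie in the sparse right tail with both cytokines, and Parp1, Parp2 and Parp8 lie in the bulk.

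The cytokines were then compared directly, at 20 ng/mL IFN-λ2 and 500 U/mL IFN-β after 9 h. With a single dose each, in unlike units, and a single time, dose and time course cannot be told apart from the type of IFN. None of the 10 genes was higher with IFN-λ2 and 1, Parp3, was lower, whereas 5.64% of all probes were higher and 5.56% lower. Parp3 signals with IFN-λ2 were 0.791-fold those with IFN-β (log2 difference -0.34, SE 0.08, limma adjusted p = 0.0371). Within slides 1, 2 and 3 the difference was -0.24, -0.39 and -0.38 on the log2 scale. With the replicate number as a block the adjusted p was 0.0747, and the call was made in 8 of 21 alternatives. It was lost on leaving out any 1 of the 8 arrays, with adjusted p-values between 0.0538 and 0.124 and log2 differences between -0.38 and -0.28.

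For the 5 genes with large responses the direct difference was small. It was 0.15 for Parp14 (-0.20 to 0.51, limma adjusted p = 0.584), -0.04 for Parp9 (-0.20 to 0.11, adjusted p = 0.738), 0.20 for Dtx3l (-0.03 to 0.43, adjusted p = 0.258), -0.12 for Parp12 (-0.29 to 0.05, adjusted p = 0.365) and -0.09 for Parp10 (-0.24 to 0.06, adjusted p = 0.416), all on the log2 scale as IFN-λ2 minus IFN-β. The intervals allow a difference of up to 1.42-fold in favor of IFN-λ2 for Parp14, up to 1.34-fold in favor of IFN-λ2 for Dtx3l and up to 1.22-fold in favor of IFN-β for Parp12. The second Dtx3l probe gave 0.19 (adjusted p = 0.267). Within slides 1, 2 and 3 the difference was 0.41, 0.07 and 0.11 for Dtx3l at the first probe, 0.09, 0.14 and 0.34 at its second probe, and 0.34, -0.06 and 0.17 for Parp14. Slide 1 held the widest gap at the first Dtx3l probe and for Parp14, and the narrowest at the second Dtx3l probe. The cytokine groups did not overlap for Dtx3l and Parp8, with IFN-λ2 higher, and for Parp12 and Parp3, with IFN-β higher. Among all probes such separation occurred in 16.4% with IFN-λ2 higher and in 15.9% with IFN-β higher. Parp8 differed by 0.18 (0.01 to 0.34, adjusted p = 0.17), Parp11 by 0.04 (-0.43 to 0.52, adjusted p = 0.926), Parp1 by -0.04 (-0.23 to 0.16, adjusted p = 0.836) and Parp2 by 0.02 (-0.18 to 0.22, adjusted p = 0.924). None of these 9 differences passed in any of the 21 alternatives.

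**Figure D4:**
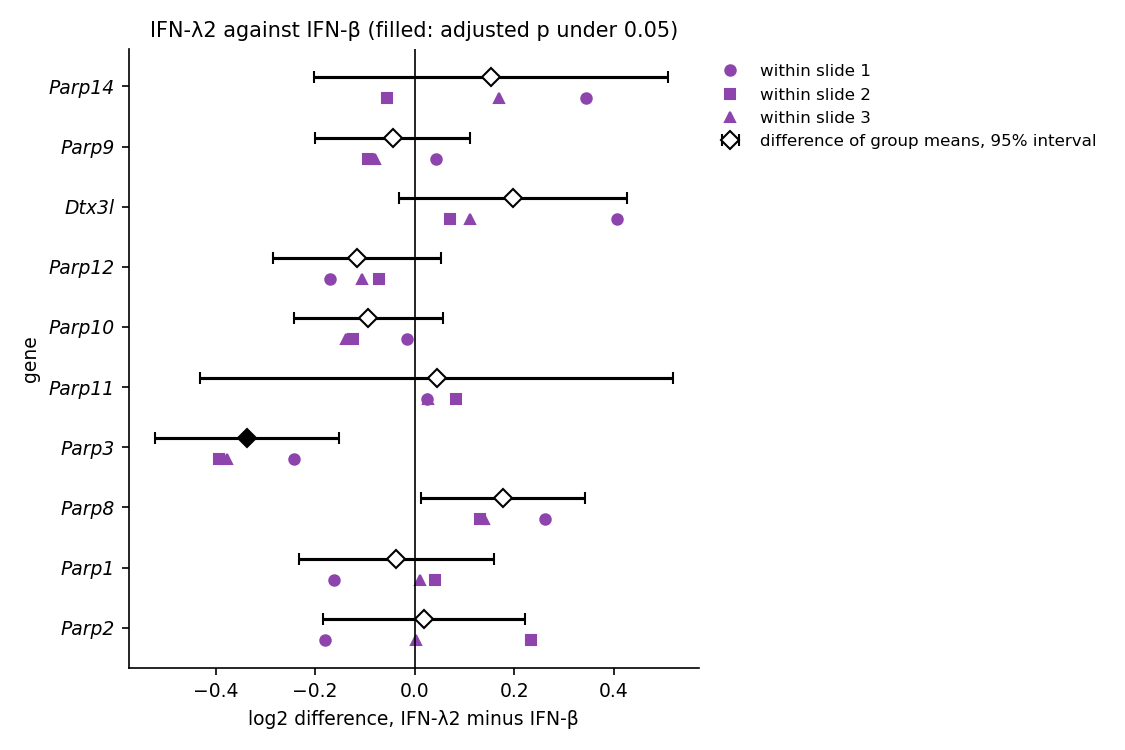
IFN-λ2 minus IFN-β, as a log2 difference, for the 10 genes. Diamonds with bars give the difference of the group means with its 95% interval (limma, filled at an adjusted p under 0.05), and purple symbols the difference within each slide. Parp3 is the only filled symbol, and its 3 within-slide values lie between -0.39 and -0.24.

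The probes whose log2 values over the 8 arrays followed Parp14 most closely were listed. Of 20251 probes that were well above background on all arrays, the highest Pearson correlations were 0.9993 for a probe that the files name only by an Ensembl transcript identifier and 0.9989 for each of Trim12a, Mx2, Ddx58 and Oasl2. Mx2 encodes a dynamin-like antiviral GTPase, Ddx58 the cytosolic RNA sensor RIG-I and Oasl2 a member of the oligoadenylate synthetase family. The cells carry an Mx2-luciferase transgene, and whether the Mx2 probe also reads it was not tested. Mx2 was 21.9-fold above control in IFN-λ2 arrays and 18.6-fold in IFN-β arrays, Oasl2 28.1-fold and 24.4-fold, Ddx58 7.15-fold and 6.73-fold, and Trim12a 6.82-fold and 5.83-fold. The correlation of the members with Parp14 was 0.998 for Dtx3l, 0.996 for Parp9, 0.992 for Parp12, 0.989 for Parp10, 0.839 for Parp11, 0.761 for Parp3, 0.546 for Parp8, -0.660 for Parp2 and -0.679 for Parp1. These values describe 8 arrays in 3 groups, which share the step from control to cytokine. Probes picked by likeness to Parp14 therefore rise with both cytokines by that choice.

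The ISGF3 components Stat2 and Irf9 and the IFN regulatory factors Irf1 and Irf7 were read on the same arrays. All 4 genes were higher than control with either cytokine, and 0 of 4 passed between the cytokines in limma. The share of all probes higher than control was 10.1% upon IFN-λ2 and 1.42% upon IFN-β, and between the cytokines 5.64% were higher and 5.56% lower with IFN-λ2. Stat2 was 4.48-fold above control upon IFN-λ2 and 3.32-fold upon IFN-β, and Irf9 3.99-fold and 3.82-fold (limma adjusted p between 6.7e-06 and 0.000412). Irf7, which itself drives IFN genes, changed 12.7-fold and 14.4-fold, and Irf1 2.20-fold and 1.82-fold.

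Promoter windows from 250 bases before to 50 bases after the gene start were taken from RefSeq (GRCm38.p6), which gave 8 windows for 7 of the 10 genes. They were searched on both strands for the ISRE core, the letters GAAA repeated after any 2 bases, and for the gamma-activated site TTCNNNGAA. Of 32851 windows of this length, 3.44% held the ISRE core and 8.30% the gamma-activated site. Among the members only 1 Parp11 window held a match. Its ISRE core begins 44 bases before the gene start on the opposite strand and its gamma-activated site begins 37 bases before the start, and the matches overlap by 3 bases. The second Parp11 window held neither motif. The Parp11 window with the matches and the windows of Dtx3l and Parp12 are printed for comparison, since the Parp11 window with the match belongs to the gene with the smaller change of the 3. Capitals mark the bases that match either motif.
Parp11, chr6:127446590-127446889, plus strand: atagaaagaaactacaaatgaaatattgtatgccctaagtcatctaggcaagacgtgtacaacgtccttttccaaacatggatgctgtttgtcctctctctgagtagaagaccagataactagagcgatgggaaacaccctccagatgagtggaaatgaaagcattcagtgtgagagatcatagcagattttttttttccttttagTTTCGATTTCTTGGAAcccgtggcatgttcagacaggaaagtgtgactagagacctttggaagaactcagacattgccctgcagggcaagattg
Dtx3l, chr16:35938978-35939277, minus strand: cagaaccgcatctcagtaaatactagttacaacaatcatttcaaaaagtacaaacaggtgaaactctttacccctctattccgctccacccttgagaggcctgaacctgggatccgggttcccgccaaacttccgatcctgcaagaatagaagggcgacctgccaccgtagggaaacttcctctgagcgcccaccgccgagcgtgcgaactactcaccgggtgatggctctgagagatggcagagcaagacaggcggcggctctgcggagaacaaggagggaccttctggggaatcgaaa
Parp12, chr6:39118300-39118599, minus strand: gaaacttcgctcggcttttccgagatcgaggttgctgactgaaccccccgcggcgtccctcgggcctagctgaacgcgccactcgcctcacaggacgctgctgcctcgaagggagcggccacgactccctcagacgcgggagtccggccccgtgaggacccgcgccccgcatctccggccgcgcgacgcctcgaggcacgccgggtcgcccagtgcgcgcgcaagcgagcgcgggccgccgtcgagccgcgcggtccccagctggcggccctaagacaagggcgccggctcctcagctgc

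The absence of a match says only that these letters do not occur in the window. The windows of Parp9, Parp10 and Parp14 were not analysed here.

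The other genes of ADP-ribosylation were examined as 5 lists of 44 genes, which cover the remaining intracellular transferases, the enzymes and readers that remove or bind ADP-ribose, NAD supply, partners in strand break repair and ectoenzymes. Of these, 37 could be tested. With IFN-λ2, 7 were higher, 2 were lower and 28 did not pass, whereas with IFN-β 3 were higher, none was lower and 34 did not pass. Over all probes 10.1% were higher and 8.39% lower with IFN-λ2, and 1.42% higher and 0.211% lower with IFN-β. The number of list genes that passed with IFN-λ2 was 9, but 3 with normexp background correction and 6 with the replicate number as a block, and with IFN-β it was 3, but 2 with the block. The median log2 change was 0.05 and -0.02, respectively, close to that of all probes. Between the cytokines 2 of 37 genes were lower with IFN-λ2 and none was higher, beside 5.56% and 5.64% of all probes, and 0 passed with normexp.

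Zc3hav1 and Art3 were the genes of these lists that passed the test with a change of at least 2-fold. Zc3hav1, also known as Parp13 or zinc finger antiviral protein, binds viral RNA and lacks transferase activity. It rose from a control mean of 764 units to 1972 with IFN-λ2 (2.58-fold, limma adjusted p = 0.000623) and to 1830 with IFN-β (2.39-fold, adjusted p = 0.00238), and its direct difference of 0.11 on the log2 scale did not pass (adjusted p = 0.582). Art3, a membrane-anchored member of the ectoenzyme family of ADP-ribosyltransferases, had a control mean of 22.8 units and rose 6.22-fold with IFN-λ2 (adjusted p = 1.34e-05) and 5.36-fold with IFN-β (adjusted p = 2.98e-05). Its probe was well above background on 1 of the 2 control arrays and on all arrays of both cytokines.

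The list genes with smaller changes are named here after their values were seen. Of the 9 list calls with IFN-λ2 over control, the count fell to 3 with normexp and to 6 with the block. Of all probes, 10.1% were higher and 8.39% lower with IFN-λ2, and 1.42% were higher with IFN-β. Among the other intracellular transferases 2 of 7 were higher with IFN-λ2, Zc3hav1 and the vault-associated Parp4 (log2 change 0.45, limma adjusted p = 0.0345), and 1 was lower, Tiparp, a target of the aryl hydrocarbon receptor (-0.52, adjusted p = 0.0118). With IFN-β only Zc3hav1 of the 7 passed. Tiparp was also lower with IFN-λ2 than with IFN-β (log2 difference -0.52, adjusted p = 0.0113). This direct call, and that of Nnmt below, was lost with normexp, where 0 list genes passed between the cytokines.

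Of the 10 erasers and readers, Macrod1, which removes single ADP-ribose units, was higher with IFN-λ2 (0.42, limma adjusted p = 0.0316), and none passed with IFN-β. Of all probes, 10.1% were higher and 8.39% lower with IFN-λ2. A single gene higher or lower with IFN-λ2 in a list of 8 or 10 is close to these shares. For NAD supply 8 of 10 genes could be tested. Nampt, the rate-limiting enzyme of NAD salvage, was higher with both cytokines (1.69-fold with IFN-λ2, adjusted p = 0.00362, and 1.78-fold with IFN-β, adjusted p = 0.00927). Nnmt, which methylates nicotinamide, was lower with IFN-λ2 than in control cells (-0.51, adjusted p = 0.00779) and than with IFN-β (-0.41, adjusted p = 0.017). Of the 8 repair partners, which act with Parp1 and Parp2 at strand breaks, the end-processing enzyme Aptx was higher with IFN-λ2 (0.44, adjusted p = 0.0204), and none passed with IFN-β. Of 9 ectoenzymes 4 could be tested, and beside Art3 the cyclase Bst1 was higher with IFN-λ2 (0.38, adjusted p = 0.0236).

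**Figure D5:**
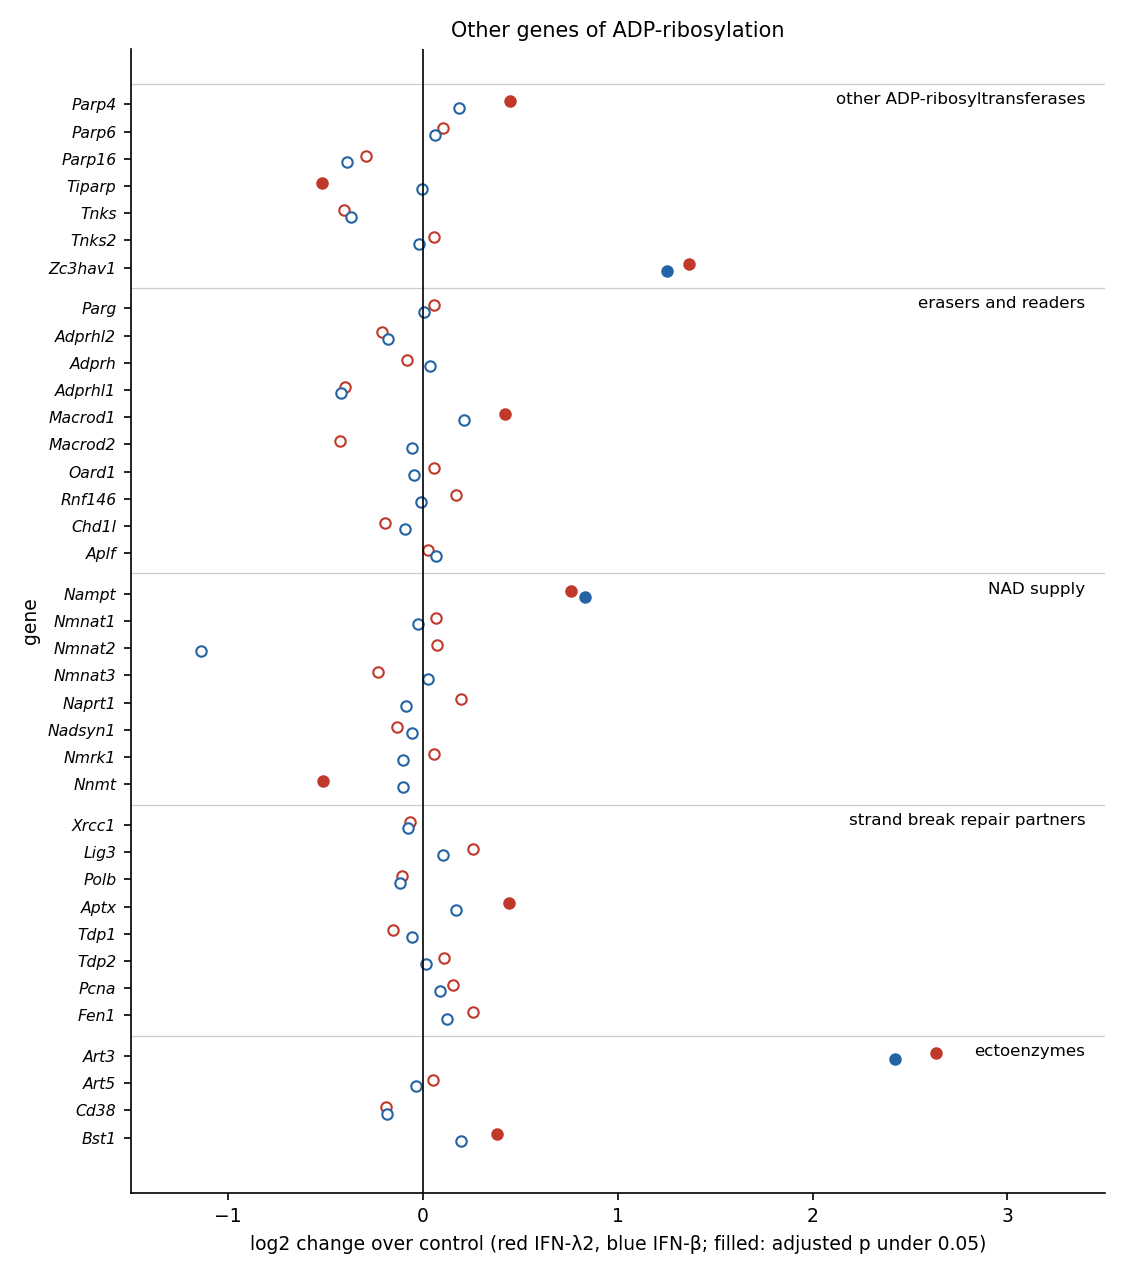
Log2 change over control of the 37 other ADP-ribosylation genes tested, grouped by list, with IFN-λ2 in red and IFN-β in blue. Filled symbols have an adjusted p under 0.05 (limma), and Zc3hav1 and Art3 are the filled symbols beyond 1.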

How the data were processed

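Total RNA of IEC10 cells was hybridised to 8 one-color Agilent arrays (control 2, IFN-λ2 3, IFN-β 3), grouped by their labels. The study's methods name an RNeasy kit for RNA and the labels Trizol. The authors deposited the intensity of every feature as written by Feature Extraction 10.7.3.1, after background subtraction, and a table of scaled intensities. A control replicate 1 was not analysed here.

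Control features, outliers, deviating on-chip copies and features with a pixel coefficient of variation above 0.5 were left out (296 to 408 features per array beside the controls). Processed signals were averaged geometrically over the copies of a probe. Each array was then multiplied so that its 75th percentile became 1500, which gives normalized gPS units, and values below 15 were raised to 15 before log2 was taken. The deposited table was an alternative, since its values for the members were 0.909 to 0.926 times those rebuilt here. A probe entered the test if 2 or more arrays exceeded 15 units, which held for 26009 of 39429. A model of the 3 group means (limma 3.58.1, R 4.3.3) used the 8 arrays together, and p-values were adjusted by Benjamini-Hochberg over all probes, with a threshold of 0.05. For Dtx3l the probe with the highest mean signal represents the gene. The number of arrays limits the precision. By rule, the other genes named were the list genes that passed with at least a 2-fold change and the 5 most like Parp14. List genes with smaller changes, ISGF3 and IFN regulatory factor genes and cell type markers are named beside them, after their values were seen. Some genes are not reported here. Members and lists were chosen with earlier results of these data known. The fit was run on simulated data with independent normal noise and a log2 shift of 2 in 200 probes. Over the 3 comparisons it recovered 187 to 191 of them, with 11 to 14 false calls. The simulation held no correlation within slides and so does not test its effect. Figures were drawn with matplotlib 3.10.9 in Python 3.11.15, with pandas 2.3.3 and numpy 2.4.6.

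Each slide held 1 replicate number. Deviations from the group means of IFN-λ2 and IFN-β arrays correlated at 0.184, 0.283 and 0.316 for replicates 1, 2 and 3, so that the numbers pair these arrays. With control arrays the correlations for replicates 2 and 3 were 0.0191 and 0.0013 for IFN-λ2 and 0.1 and -0.0511 for IFN-β. The numbers thus show no such pairing with control. The position on the slide was fixed for each group and cannot be told apart from the treatment. The 21 alternatives comprised quantile normalization, normexp background correction, a floor of 50 units or none, 2 other filters on dim probes, the replicate block, the deposited table, all features kept, each of the 8 arrays left out, the 2 groups compared alone, a variance prior with trend, a 2-group test of each probe by its own variance and averaging over probes. Differences within a slide are given as values.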

Additional observations from a re-analysis of the deposited data

How the results depend on the processing

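Over the alternatives to limma's fit, the calls of Parp14, Parp9, Dtx3l, Parp12 and Parp10 over control did not change except for Parp14 and Dtx3l with IFN-β in a test of each probe by its own variance, where 3 of the 10 genes passed in place of 6. For IFN-λ2 against IFN-β the count of members that passed fell from 1 to 0 with normexp background correction, with all probes tested, with each probe's own variance and with only the groups compared, and leaving out any 1 array also gave 0. With the replicate number as a block, which rests on the pairing of IFN-λ2 and IFN-β arrays, that count was 0, and Parp3 with IFN-β over control lost its call as well (log2 change 0.61). No other member's call changed with the block. With normexp the other ADP-ribosylation genes that passed fell from 9 to 3 for IFN-λ2 against control and from 2 to 0 for IFN-λ2 against IFN-β. The causes were not tested.

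Differences that turned direction were all small and had not passed. Parp8 with IFN-β over control was -0.015 with normexp and -0.0006 with quantile normalization, and lay between -0.0397 and 0.0951 with single arrays left out. With single arrays left out, the IFN-λ2 minus IFN-β difference lay between -0.0733 and 0.0121 for Parp1, between -0.0379 and 0.0744 for Parp2 and between -0.1451 and 0.2143 for Parp11. With 2 control arrays the spread of that group is poorly known, and of the members Parp11 had the widest interval.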
